A study of Mus musculus with 4 samples.

Results

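The trefoil factors Tff1, Tff2 and Tff3 and the gastrokines Gkn1, Gkn2 and Gkn3 are 6 of 22180 genes measured in the mouse gastric corpus. They were chosen by gene symbol, each gene has 1 probe set that names it alone, and all 6 passed a filter on low values that kept 11090 genes. Expression was measured on 4 microarrays, with 1 array in each of 4 groups. Wild-type C57BL/6 mice (WT) and AMPK knockout mice (KO, Atp4b-cre; Prkaa1fl/fl; Prkaa2fl/fl) were given either metformin (300 mg/kg) or saline as vehicle, by intraperitoneal injection each day for 14 days, and were adults of 8 to 10 weeks. In the KO, Cre driven by the Atp4b promoter removes the AMPK catalytic subunits α1 (Prkaa1) and α2 (Prkaa2) from parietal cells. Their background was mixed and included FVB, unlike that of the WT mice, so genotype and background cannot be told apart. The number of animals behind each array is not stated.

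Trefoil factors are small secreted peptides held in a compact fold by cysteine bridges, and they act with mucins to protect and repair the surface of the gut. In the stomach, Tff1 comes from surface pit cells and is stored with the mucin Muc5ac, while Tff2 comes from mucous neck cells and is stored with the mucin Muc6. Tff3 is chiefly a product of intestinal goblet cells. Gastrokines are secreted stomach proteins with a BRICHOS domain, a fold that assists the folding of its own precursor. Gkn1 and Gkn2 are made by pit cells, Gkn2 forms a disulfide-linked pair with Tff1, and Gkn3 marks mucous neck cells of the mouse corpus.

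The members form 2 clusters in RefSeq (assembly GRCm38.p6). On chromosome 17 the order was Tff3, Tff2 and Tff1, between the sterol transporter Abcg1 and the serine protease Tmprss3, and the noncoding gene Gm15318 overlapped Tff1. On chromosome 6 the order was Gkn1, Gkn2 and Gkn3, between the noncoding gene Gm34090 and Bmp10. Abcg1 lay between 5.44 and 6.04 on the log2 scale over the 4 arrays, Tmprss3 between 4.08 and 4.57 and Bmp10 between 3.43 and 3.70, the last pair under the filter value of 5.03 on every array. Tmprss3 was lowest on the WT vehicle array, as the trefoil factors were, and Abcg1 was not. Of genes under the filter, as Tmprss3 was, 43.3% were lowest on that array.

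The 250 bases before the start of each gastrokine gene are shown because these adjacent genes had different patterns over the arrays, as described further on. The sequences are from RefSeq (GRCm38.p6), read 5′ to 3′ in the direction of the gene, and 3 of the 6 members were matched. Tff1, Tff2 and Tff3 were not matched. Capitals mark TATAAA, the TATA box, and AGATAA or TGATAA, letters recognised by GATA factors, on either strand.
Gkn1, minus strand, chr6:87350916-87351165: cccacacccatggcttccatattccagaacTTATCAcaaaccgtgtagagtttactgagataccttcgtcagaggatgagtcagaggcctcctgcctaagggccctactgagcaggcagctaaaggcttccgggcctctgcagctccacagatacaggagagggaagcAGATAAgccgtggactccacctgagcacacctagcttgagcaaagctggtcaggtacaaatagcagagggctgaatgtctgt
Gkn2, plus strand, chr6:87373115-87373364: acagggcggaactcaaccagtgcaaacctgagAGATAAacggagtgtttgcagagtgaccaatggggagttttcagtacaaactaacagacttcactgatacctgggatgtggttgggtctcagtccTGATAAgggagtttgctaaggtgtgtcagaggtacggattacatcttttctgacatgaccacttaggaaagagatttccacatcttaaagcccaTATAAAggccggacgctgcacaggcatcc
Gkn3, minus strand, chr6:87388936-87389185: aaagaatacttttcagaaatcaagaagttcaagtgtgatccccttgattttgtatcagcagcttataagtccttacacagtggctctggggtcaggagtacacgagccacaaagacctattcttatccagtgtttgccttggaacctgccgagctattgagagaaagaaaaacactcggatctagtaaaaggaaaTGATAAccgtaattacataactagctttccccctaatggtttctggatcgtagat

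Gkn2 had TATAAA at bases -29 to -24 from its start, and the windows of Gkn1 and Gkn3 did not hold these letters. AGATAA or TGATAA occurred in all 3 windows, at 2 places in Gkn1, at 2 in Gkn2 and at 1 in Gkn3 (bases -55 to -50). Among 32851 promoter windows of the same length, 12.4% held TATAAA, 16.6% held AGATAA or TGATAA and 2.72% held 2 or more of the latter. The letters TGTTTAC and TATTTAC (forkhead factors), TTCNNNGAA (STAT factors) and CACGTG (an E-box) were also searched on both strands and were in none of the 3 windows. They occurred in 3.17%, 2.73%, 7.02% and 6.02% of all windows. The GC content was 53.2% for Gkn1, 47.2% for Gkn2 and 40.8% for Gkn3.

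The targeted genes and the markers of the tissue were examined first. In RNA from whole corpus, Prkaa1 was lower in KO under vehicle (8.18 against 9.46), and under metformin the difference was -0.24 (8.66 against 8.90). Prkaa2 had 7.19 against 8.90 under vehicle and a difference of -0.50 under metformin (7.52 against 8.02). The metformin arrays, which the Gkn3 result rests on, thus differed less in the targeted genes than WT did between treatments (-0.55 for Prkaa1 and -0.88 for Prkaa2). All 10 parietal cell markers and all 10 pit cell markers passed the filter. Under vehicle all 10 parietal markers were lower in KO (median -0.40), as were 66.9% of all genes. Under metformin 6 of the 10 were higher in KO (median 0.04), as were 53.0% of all genes. The median difference of all genes was -0.14 for metformin in WT, 0.11 for metformin in KO, -0.22 for KO against WT under vehicle and 0.02 for KO against WT under metformin. Cells of a type becoming fewer and RNA per cell becoming lower cannot be told apart in whole tissue.

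Tff2 was the trefoil factor with the widest range. Its log2 values were 11.64 with vehicle and 12.62 with metformin in WT, and 12.53 with vehicle and 12.34 with metformin in KO. Values of a gene are given in this order throughout. The WT vehicle array stood lowest by 0.70, and the other 3 lay within 0.28 of each other. Of 11090 genes, 103 (0.929%) were lowest on the WT vehicle array by at least as much. The array and the gap were taken from the Tff2 values, so this share is no test of them.

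Tff1, the pit cell peptide, had 13.01 with vehicle and 13.33 with metformin in WT, and 13.24 and 13.24 in KO. The WT vehicle array was again lowest, but the whole range was 0.32. Tff3 had 5.09, 5.12, 5.71 and 5.41 on the same arrays, so both WT arrays lay close to the filter value and both KO arrays above them. With 1 array a group there is no replicate spread to set these gaps against.

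Gkn3 was the gastrokine with the widest range. Its values were 7.82 and 7.71 in WT, and 8.03 and 8.99 in KO. The KO metformin array was highest by 0.96, and the other 3 lay within 0.31 of each other. Of 11090 genes, 10 (0.0902%), Gkn3 included, were highest on that array by at least this much. The array and the gap were taken from the Gkn3 values, so this share is no test of them. The other 9 genes, chosen here after their values were seen, were Krtdap, Krt10, Cnfn, Dmkn, Krt13, 5730420D15Rik, Dmbt1, Ly6g6c and Lypd5. Of these, Krtdap, Dmkn, Krt13 and Lypd5 were under the filter value of 5.03 on the other 3 arrays. They passed the filter only through the KO metformin array. Krt10 and Krt13 are keratins of layered squamous epithelium, and Dmbt1 is a mucosal scavenger protein.

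Gkn1 had 13.58 with vehicle and 13.61 with metformin in WT, and 13.37 and 13.49 in KO, a range of 0.24. Gkn2 had 13.85, 13.91, 13.84 and 13.90 on the same arrays, a range of 0.06. The highest value of any probe set was between 13.99 and 14.02 on each array, so the signals of Gkn2 and Gkn1 were near the top of the scale. How far signal there still follows the amount of RNA was not tested.

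**Figure D1:**
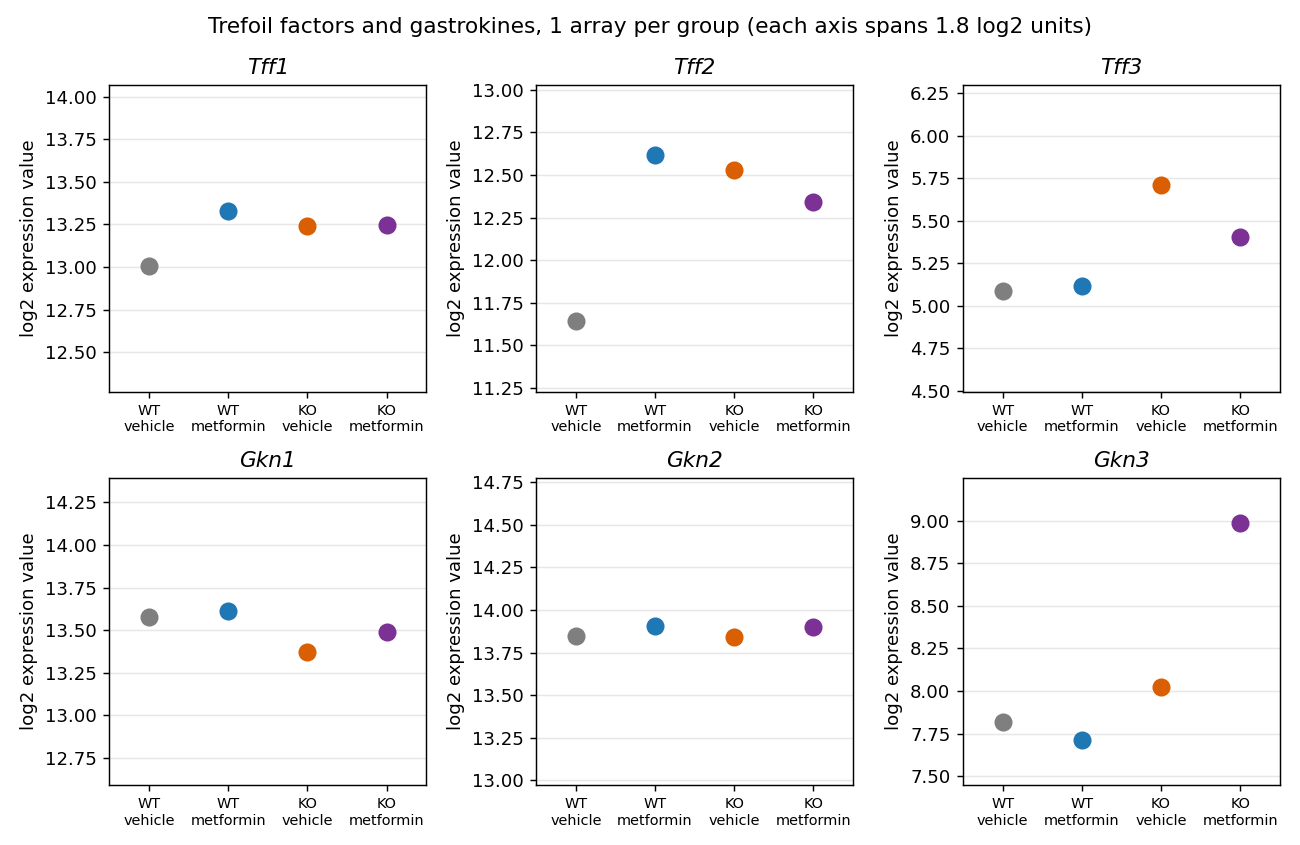
Log2 expression value of each trefoil factor and gastrokine (vertical axes, each spanning 1.8 log2 units) on the 4 arrays (horizontal axes), with 1 point per array and no error bars because each group has 1 array. Tff2 is low on the WT vehicle array (11.64 against 12.34 to 12.62) and Gkn3 is high on the KO metformin array (8.99 against 7.71 to 8.03), while Gkn1 and Gkn2 stay within 0.24 and 0.06.

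The effect of metformin where parietal cells are mature was read from the pair of WT arrays. Tff2 was 1.97-fold higher with metformin (difference 0.98 on the log2 scale) and Tff1 was 1.25-fold higher (0.32). The differences of the other members were 0.03 (Tff3), 0.04 (Gkn1), 0.06 (Gkn2) and -0.10 (Gkn3), and the sign of each of these 4 changed under another scaling of the arrays. None of the 6 passed 2-fold, the size at which a gene was counted as different, against 1.70% of all genes. A difference as high as that of Tff2 was reached by 0.848% of all genes.

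The pair of KO arrays gives the metformin response in KO mice, whose parietal cells the submitters describe as reduced in number and maturity. On the arrays, all 10 parietal markers were lower in KO under vehicle (median -0.40). Under metformin 6 of the 10 were higher in KO (median 0.04), so the KO metformin array did not show this reduction against the WT metformin array. In WT, 1 of the 10 was higher with metformin than with vehicle (median -0.25), against 34.6% of all genes. The summed linear signal of the 10 was 31511 with vehicle and 26864 with metformin in WT, and 23630 and 27801 in KO. The KO metformin sum was thus below that of the WT vehicle array. Gkn3 was 1.95-fold higher with metformin (0.96), just under 2-fold, and it was 1.04 after median centring. Differences were -0.19 for Tff2, -0.30 for Tff3, 0.12 for Gkn1, 0.06 for Gkn2 and 0.00 for Tff1, whose sign changed under cyclic loess. None of the 6 passed 2-fold, against 3.06% of all genes, and 2.83% of all genes had a difference as high as that of Gkn3.

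The vehicle arrays set KO beside WT without metformin, and loss of AMPK and background cannot be told apart in them. The trefoil factors were higher in KO, with 0.89 for Tff2 (1.85-fold), 0.62 for Tff3 (1.54-fold) and 0.23 for Tff1, while the median of all genes was -0.22. Among the gastrokines, Gkn3 had 0.21, Gkn2 -0.01 and Gkn1 -0.21. After median centring Tff2 had 0.74, Tff3 0.47 and Tff1 0.08, and the median of all genes was -0.37. Tff3 lay near the filter value (5.09 and 5.71). Of genes under the filter 46.6% were highest on the KO vehicle array, and of those past it 19.7%. None of the 6 passed 2-fold, against 10.4% of all genes. This comparison and the metformin response in WT share the WT vehicle array, on which Tff2 was lowest, so the values of 0.89 and 0.98 for Tff2 are not separate findings.

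The members have short genes, with spans from 3221 to 6130 bases in the RefSeq table. Short genes as a class were placed differently in this comparison. The median of the 1513 protein-coding genes no longer than 6130 bases was 0.07 for KO against WT under vehicle, against -0.24 for all protein-coding genes past the filter. In the metformin response of WT it was 0.08 against -0.15. Among these short genes, 8.20% had a vehicle difference as high as that of Tff2, against 3.20% of all genes. For the metformin response of WT the shares were 0.991% and 0.848%. The part of gene length in the Tff2 values was not tested.

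Under metformin, Gkn3 was 2.42-fold higher in KO than in WT, with a difference of 1.27 that was 1.25 under cyclic loess and 1.28 after centring. It was the 1 of 6 members past 2-fold, against 0.920% of all genes, and 0.316% of all genes had a difference as high. Tff3 had 0.29, Tff1 -0.09, Gkn1 -0.13, Tff2 -0.28 and Gkn2 0.00, the last with a sign that changed under both scalings. The KO metformin array enters this comparison and the KO response, so the values of 1.27 and 0.96 for Gkn3 share it.

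The metformin response in KO minus that in WT was -1.17 for Tff2 and 1.07 for Gkn3, in opposite directions. These 2 of 6 members passed 2-fold, against 14.8% of all genes, and the median of all genes was 0.26. For Gkn3 the value was 0.78 under cyclic loess, under 2-fold. The other differences of responses were -0.33 (Tff3), -0.32 (Tff1), 0.08 (Gkn1) and 0.00 (Gkn2).

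**Figure D2:**
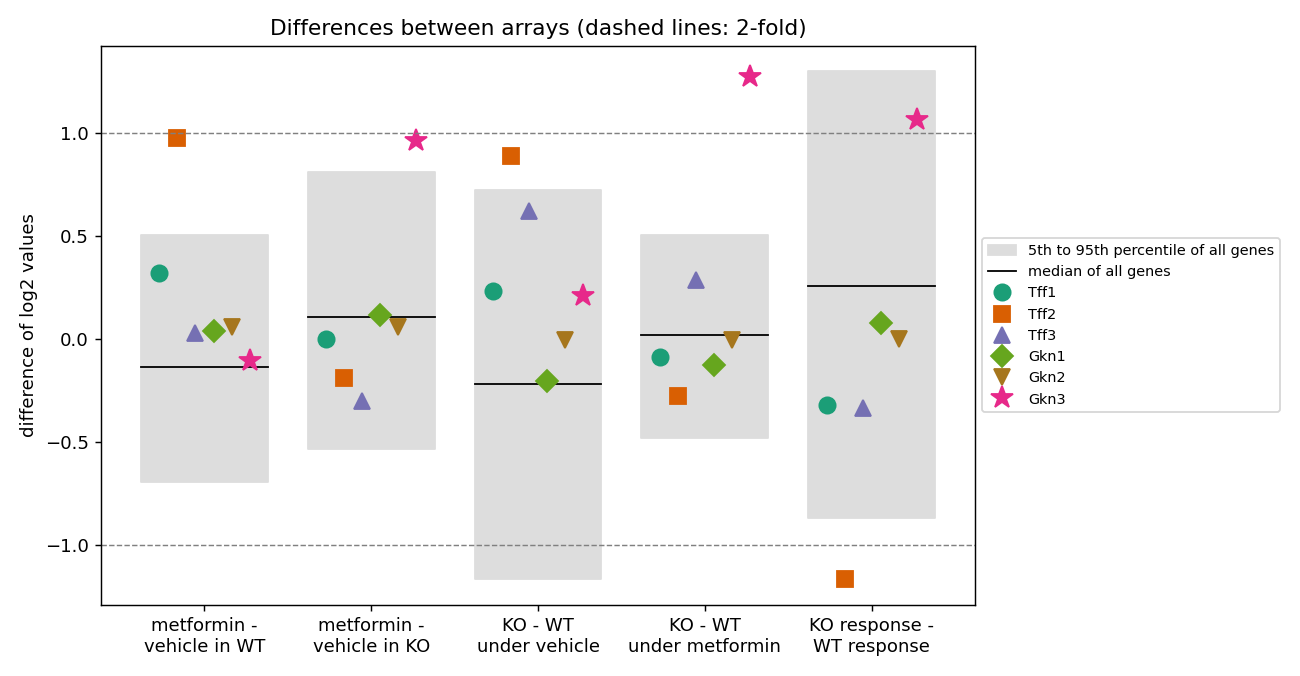
Difference of log2 values (vertical axis) of the 6 members in the 5 comparisons (horizontal axis), with grey boxes from the 5th to the 95th percentile of 11090 genes, a black line at their median and dashed lines at 2-fold. Tff2 lies above the box for metformin in WT (0.98) and for KO against WT under vehicle (0.89), and Gkn3 lies above it for metformin in KO (0.96) and for KO against WT under metformin (1.27). Tff2 is among the top 5% of genes by mean. The 95th percentile of those genes was 0.79 for metformin in WT and 1.08 for KO against WT under vehicle, so 0.89 lies below the latter.

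For each factor, 2 arrays were set against the other 2 in a limma fit on all 11090 genes. The genotype effect was 0.74 ± 0.35 (SE) for Gkn3, 0.45 ± 0.30 for Tff3 and 0.31 ± 0.35 for Tff2, with a limma adjusted p of 0.9995 for each of the 6 members. The metformin effect was 0.43 ± 0.35 for Gkn3 and 0.39 ± 0.35 for Tff2, with a limma adjusted p of 1 for each member. No member passed an adjusted p under 0.05, against 0.0451% of all genes (5) for genotype and 0.00% for metformin. Without adjustment, 374 genes (3.37%) had a limma p under 0.05 for genotype and 32 (0.289%) for metformin, and no member did. Under cyclic loess the limma p of Gkn3 for genotype was 0.0208 (adjusted p 0.9968). On simulated arrays the genotype fit recovered 4.55% of true differences of 1 (log2).

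Mucous neck cell markers were set beside Tff2 and Gkn3, which those cells make. Muc6, the gland mucin stored with Tff2, had 11.45 with vehicle and 10.82 with metformin in WT, and 10.41 and 11.62 in KO. It was high on the WT vehicle array, where Tff2 was lowest, and its vehicle difference of -1.05 stood against 0.89 for Tff2. The gland glycosyltransferase A4gnt, with 9.57, 8.54, 8.09 and 9.28, was also lowest on the KO vehicle array. The water channel Aqp5 had 5.89, 5.58, 5.90 and 6.63, highest on the KO metformin array like Gkn3.

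Of the 8 neck markers past the filter, 6 were higher in KO than in WT under metformin, with a median of 0.77 against 0.02 for all genes. Aqp5 (1.05) was the 1 past 2-fold, and Galnt7 (-0.12) and Agr2 (-0.11) were lowest. Of all genes, 53.0% were higher in that comparison and 0.920% passed 2-fold. In the KO response all 8 were higher with metformin (median 0.39), Galnt7 by only 0.0006 and the secreted protein Bpifb1 by 0.02. Muc6 (1.22) and A4gnt (1.19) were past 2-fold. Of all genes, 61.7% were higher in the KO response and 3.06% passed 2-fold. In KO against WT under vehicle the neck markers went both ways, 4 higher and 4 lower, from A4gnt (-1.48) to Bpifb1 (0.92). A4gnt and Muc6 (-1.05) passed 2-fold there. Of all genes, 66.9% were lower in that comparison and 10.4% passed 2-fold. The summed linear signal of the 9 measured markers was 6762 with vehicle and 5973 with metformin in WT, and 4927 and 7829 in KO.

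Pit cell markers were set beside Tff1, Gkn1 and Gkn2. They were lowest on the KO vehicle array in 9 of 10 cases, and the share of all genes lowest there is not given here. The aspartic protease Ctse had 13.26 with vehicle and 13.03 with metformin in WT, and 12.09 and 13.16 in KO. The surface mucin Muc5ac had 12.40, 12.43, 11.66 and 12.49. All 10 were lower in KO under vehicle (median -0.36, Ctse past 2-fold at -1.18) and all 10 were higher with metformin in KO (median 0.64). Of all genes, 66.9% were lower in the first comparison with 10.4% past 2-fold, and 61.7% were higher in the second with 3.06% past 2-fold. Gkn1 was also lowest on the KO vehicle array, by 0.12, whereas Tff1 was 0.23 higher there than on the WT vehicle array. Psca, a pit cell surface protein, had a vehicle difference of -0.09 with values from 13.71 to 13.79, near the top of the scale as those of the gastrokines are.

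**Figure D3:**
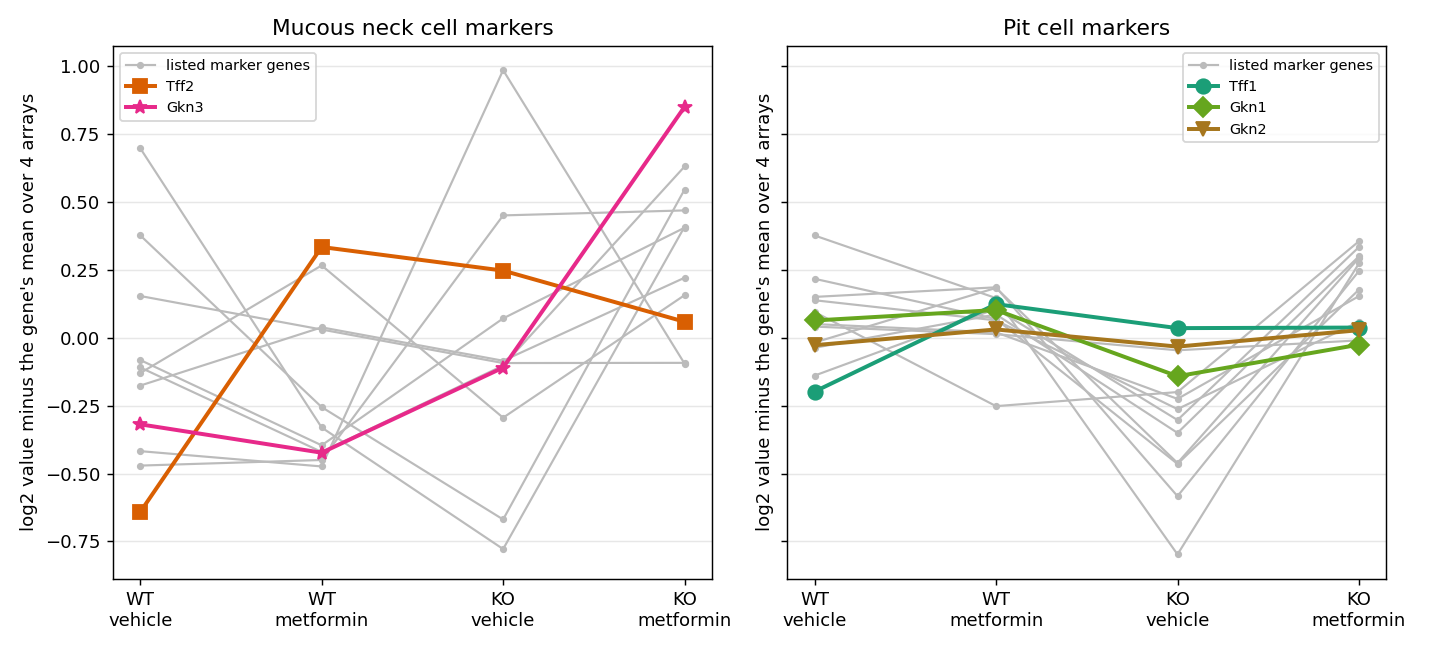
Log2 value of each gene minus its own mean over the 4 arrays (vertical axis) by array (horizontal axis), for mucous neck cell markers with Tff2 and Gkn3 (left) and pit cell markers with Tff1, Gkn1 and Gkn2 (right), where lines join the values of 1 gene and do not imply an order of groups. Neck markers split on the KO vehicle array. All 10 pit markers are lower there than on the WT vehicle array, as are 66.9% of all genes. Tff1, Gkn1 and Gkn2 vary by at most 0.32 over the 4 arrays.

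Gkn3 was the member whose 4 values spanned at least 1, so the genes most like it were sought by Euclidean distance of values centred on each gene's mean, over 4 arrays. The 5 nearest were Aqp5 (distance 0.30), Lypd5 (0.31), Rnf208 (0.31), Pla2g10os (0.34) and Il22ra1 (0.39), a subunit of the interleukin-22 receptor. Aqp5 is a neck cell marker on the list used here. Lypd5 was at 6.06 and Il22ra1 at 5.77 on the KO metformin array, and both were under the filter value on the other 3. These 2 genes thus passed the filter only through the KO metformin array.

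Proteins reported to bind or sense trefoil factors and gastrokines were examined as a list of 12, of which 11 were measured and 7 passed the filter. Dmbt1, which binds trefoil peptides in mucus, had 5.59 with vehicle and 5.75 with metformin in WT, and 6.40 and 7.74 in KO, and its difference under metformin was 1.99. Cxcr4, a chemokine receptor proposed to respond to Tff2, had 5.81, 5.87, 6.59 and 6.32, higher in KO under vehicle by 0.78. The gastrin receptor Cckbr, carried by parietal and endocrine cells of the corpus, had 7.20, 6.41, 5.43 and 6.25, with a vehicle difference of -1.76. The atypical chemokine receptor Ackr3 had differences from -0.27 to 0.03 in the 4 comparisons of array pairs.

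Of the 7 partners past the filter, under vehicle 3 were higher in KO and 4 lower, with Cckbr and Muc6 past 2-fold lower (median -0.73 against -0.22 for all genes). Of all genes, 66.9% were lower in that comparison and 10.4% passed 2-fold. Over all 11 measured partners 7 were higher and the median was 0.47, so its sign depends on the filter. Under metformin 5 of 7 were higher in KO (median 0.06) and Dmbt1 alone passed 2-fold, against 53.0% of all genes higher and 0.920% past 2-fold. The goblet cell protein Fcgbp, which forms a complex with Tff3 in mucus, and the intestinal mucin Muc2 were under the filter value on all 4 arrays, as were the proposed Tff3 receptor Lingo2 and the protease-activated receptor F2rl3.

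The other BRICHOS genes did not share the Gkn3 pattern. Itm2a, a membrane protein of the family, had 7.31 with vehicle and 6.76 with metformin in WT, and 5.77 and 6.01 in KO, with a KO against WT difference of -1.55 under vehicle. Itm2b had differences of -0.28 and -0.21 in KO under vehicle and metformin, and Itm2c had 0.31 and 0.00. Of 7 measured genes of this list these 3 passed the filter, and Sftpc, Cnmd, Tnmd and Bricd5 were under the filter value on all arrays.

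Transcription factors reported for trefoil and gastrokine genes were examined as a list of 16, of which 14 were measured and 12 passed the filter. Of these, 10 were lower in KO under vehicle, as were 66.9% of all genes, and 1 of 12 passed 2-fold (Gata5, -1.02), against 10.4% of all genes. Gata4, a GATA factor of stomach epithelium, had 8.77 with vehicle and 8.17 with metformin in WT, and 7.77 and 8.24 in KO. Gata5 had 8.18, 7.94, 7.16 and 8.32, and Gata6 had 9.24, 8.98, 8.35 and 9.14. All 3 GATA factors were lowest on the KO vehicle array, and the share of all genes lowest there is not given here. Gkn1 and Gkn2 were lowest there too, by 0.12 and 0.01 within ranges of 0.24 and 0.06, and Gkn3 was not. The part of GATA factors, or of the letters marked in the promoter windows, in the gastrokine values was not tested. Foxa3, a forkhead factor, was highest of the list in that comparison (0.32), and the median was -0.46 against -0.22 for all genes. With metformin in KO, 10 of 12 were higher (median 0.19 against 0.11), led by Gata5 (1.16) and Gata6 (0.80). Of all genes, 61.7% were higher in that comparison and 3.06% passed 2-fold. Under metformin KO and WT differed by a median of 0.05.

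Markers of neighbouring tissues were set beside the members. All 8 intestinal goblet cell markers were lowest on the WT vehicle array, where Tff3 and Tff2 were also lowest, and 6 of the 8 were under the filter value on all arrays. Of all genes, 19.7% of those past the filter and 43.3% of those under it were lowest on that array, whose median over all probe sets was the lowest (4.40, against up to 4.55 on the KO vehicle array). The summed linear signal of the goblet markers was 311 with vehicle and 453 with metformin in WT, and 561 and 615 in KO. The pair past the filter was Clca1, with 5.83, 6.83, 7.36 and 7.86, and Spink4, with 7.43, 7.90, 8.14 and 8.15. Of 8 antrum and duodenum markers, 6 were lowest on the WT vehicle array and 7 were highest on the KO vehicle array, as Tff3 was, against 46.6% of genes under the filter and 19.7% of those past it that were highest there. Their sum was 265, 410, 550 and 447 on the same arrays, 3 of them were under the filter value on all arrays, and Gast, the antral hormone gastrin, had 5.40, 5.60, 5.86 and 5.88. The part of other tissue in the Tff3 and Tff2 values was not tested.

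All 8 measured squamous markers were highest on the KO metformin array, where Gkn3 was highest, against 20.7% of genes past the filter. The summed linear signal of the squamous markers was 1012 with vehicle and 1225 with metformin in WT, and 946 and 3569 in KO. Of the 6 past the filter, 5 were higher in KO under vehicle (median 0.73), against 33.0% of all genes (median -0.22). The cornified envelope gene Sprr1a carried most of the vehicle sums, and without it the sums were 129, 173, 209 and 1745. Krtdap, a gene of keratinocyte differentiation, was under the filter value on 3 arrays and at 9.13 on the KO metformin array. Krt13 was under it on the same 3 arrays and at 6.62 there, so both passed the filter only through the KO metformin array. The part of squamous tissue in the Gkn3 value was not tested.

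**Figure D4:**
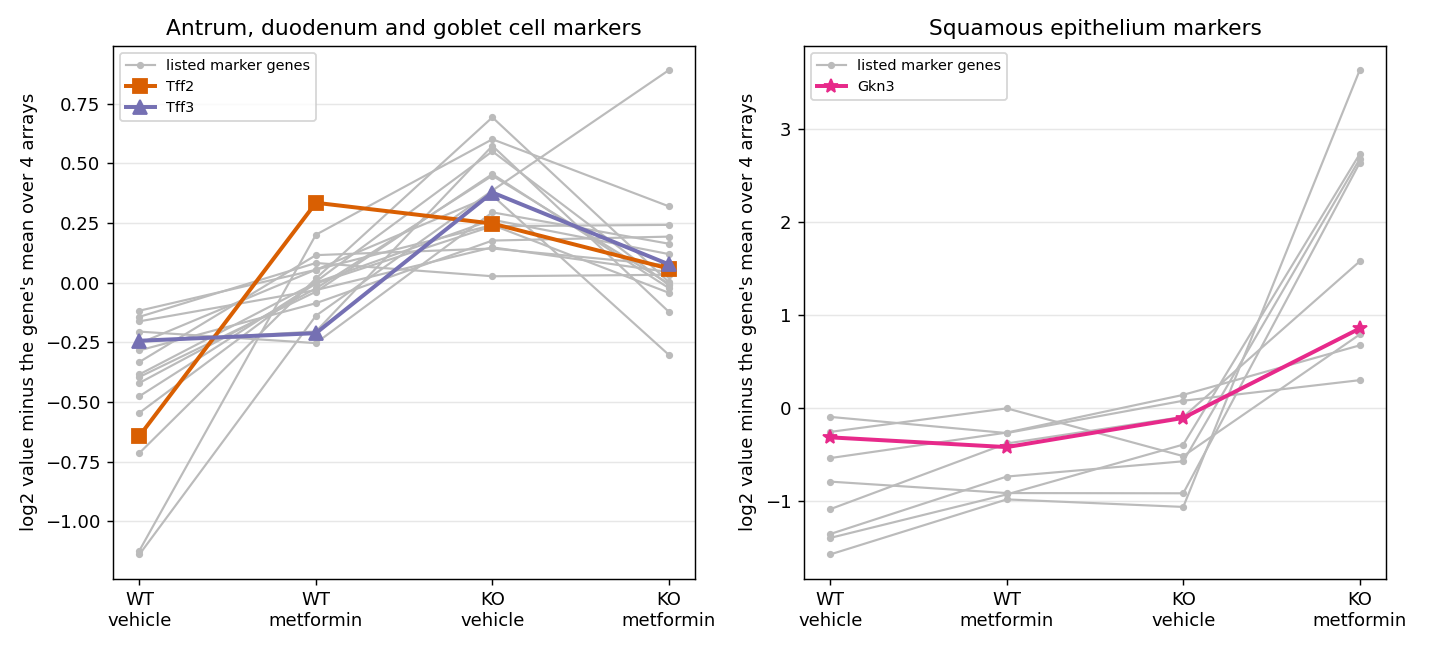
Log2 value of each gene minus its own mean over the 4 arrays (vertical axes, with different scales) by array (horizontal axis), for antrum, duodenum and goblet cell markers with Tff2 and Tff3 (left) and squamous markers with Gkn3 (right), where lines join the values of 1 gene. All 8 goblet markers and 6 of 8 antrum and duodenum markers are lowest on the WT vehicle array, and all 8 squamous markers are highest on the KO metformin array. Of genes past the filter, 19.7% are lowest on the former array and 20.7% are highest on the latter. Of genes under the filter, 43.3% are lowest on the former.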

How the data were processed

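Total RNA of gastric corpus was labelled as biotinylated cDNA for Affymetrix arrays, per the labels' protocols. The deposited log2 values were made with Partek and RMA, per the submitters' processing notes. Neither versions, settings nor the annotation build of the array are stated, so genes are placed by order only. The authors' log2 scale was read from the values (0.77 to 14.02 over 41345 probe sets).

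Of the probe sets, 23521 name 1 gene, 1814 several and 16010 none in the platform annotation. RefSeq gave current symbols for 23328 of the first. The highest-mean probe set stood for a gene. The filter kept genes whose mean reached the overall median (5.03). Differences are of log2 values, counted as 2-fold at 1, with no p-value. The additive limma 3.58.1 fit (R 4.3.3; genotype and treatment, Benjamini-Hochberg) has 1 residual degree of freedom, in which an interaction would be hidden. It was tested on simulated data for genotype (10 runs, 200 of 11090 genes changed), where it found 93.8% of changes of 2 on the log2 scale and made 23.7 false calls on average. The number of arrays limits the precision.

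Named genes were the members, the targeted genes, 6 fixed genes (Muc5ac, Muc6, Dmbt1, Fcgbp, Cxcr4 and Gast), up to 2 highest and 2 lowest of each list, the 5 genes most like a member spanning 1 or more, and the neighbours of each cluster. Other genes named were chosen after their values were seen. The members and lists were chosen with earlier results of these data known. Alternatives were cyclic loess, median centring, averaged probe sets per gene, a 1.5-fold rule, other filters and other limma variance models. A background of short genes was added after seeing the data. Python 3.11.15 with numpy 2.4.6 and pandas 2.3.3 was used.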

Additional observations from a re-analysis of the deposited data

Results flagged for a closer look

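The metformin responses of Tff2 had opposite signs in the genotypes, 0.98 in WT and -0.19 in KO, with a difference of -1.17. Those of Gkn3 were -0.10 in WT and 0.96 in KO, with a difference of 1.07. Each was singled out because the 2 responses pointed in opposite directions and differed by at least 1, and the difference was not tested because each group has 1 array. Of 11090 genes, 1610 (14.5%) met the same description. The signs of both Tff2 responses were the same under cyclic loess and median centring, whereas the WT response of Gkn3 was 0.02 under cyclic loess.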

How the results depend on the processing

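No paired analysis was possible because each group has 1 array, and for the same reason no replicate could be left out. The count of members past 2-fold was 0 for metformin in WT and 1 under a 1.5-fold rule. For metformin in KO it was 0, and 1 both after median centring (Gkn3, 1.04) and under the 1.5-fold rule. For KO against WT under vehicle it was 0, and 2 under the 1.5-fold rule. For the difference of responses it was 2, and 1 under cyclic loess (Gkn3 at 0.78). Each member has 1 probe set, so averaging probe sets could change no member value. Of 60 recomputed member differences (30 under 2 other scalings), 49 kept their sign and their side of 2-fold. Signs changed in 9, which belong to 6 differences of at most 0.10 in size as deposited. Cyclic loess moved the median of all genes by 0.15 for KO against WT under vehicle and -0.16 for the difference of responses, and median centring by -0.15 and 0.16. Among genes in the top 5% by mean, the share past 2-fold was 4.06% for metformin in WT, 6.94% for metformin in KO, 20.3% for KO against WT under vehicle and 24.1% for the difference of responses. No member passed the adjusted p in limma under any alternative. The unadjusted limma p of Gkn3 for genotype ranged from 0.0208 (cyclic loess) to 0.0886 (median centring), and was 0.0611 as deposited. Over all genes, the number past the adjusted p for genotype went from 5 to 40 after median centring, 8 with a variance trend, 3 with no filter and 0 with a filter at the 75th percentile, where Tff3 was left out. The metformin term went from 0 to 3 after median centring.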

Other observations

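Tff2 spanned 0.98 over the arrays, just short of the span set for a search of similar genes, and the search was run for it after its values were seen. The 5 nearest genes over 4 arrays were Acaa1b (distance 0.12), a peroxisomal thiolase, Mettl7b (0.12), the galectin Lgals1 (0.13), the ribosomal protein gene Rpl13 (0.14) and Snf8 (0.16). Lgals1 had 8.84 with vehicle and 9.63 with metformin in WT, and 9.60 and 9.44 in KO, and Rpl13 had 9.52, 10.31, 10.25 and 10.11. None of the 5 is a neck cell marker on the list used here.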
